A study of Mus musculus with 6 samples.

Results

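Forkhead box O (FOXO) factors and genes linked to cell quiescence were followed in mouse embryonic fibroblasts (MEFs) that carried a truncated or a full-length form of the protein NELF-B. NELF, the negative elongation factor, is a complex that pauses RNA polymerase II shortly after it starts. The 10 genes were Foxo1, Foxo3, Foxo4, Fbxo32, Pik3ip1, Ccng2, Txnip, Ypel3, Gas6 and Pmp22. They were picked by symbol, as FOXO factors and genes known to be higher in arrested cells, and all 14 of their probes were taken, out of 25697 probes and 17913 gene names on the array. The genes were picked with the difference between the forms already in view, so their differences between the forms are described here and are no test.

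The study dealt with a start codon of NELF-B that is not AUG. RNA from 3 samples with the truncated protein, which the sample titles call ATG-NELF-B, and 3 samples with the full-length protein, called FL-NELF-B, was hybridised to Illumina bead arrays. All 6 samples were MEFs of C57BL/6 background in DMEM with 10% fetal bovine serum at 50% confluence, so no sample was serum starved or confluent. The labels give neither the way in which the cells came to carry a form, nor the age of the embryos, nor whether replicates were grown apart or come from a single line, so the spread between arrays may be technical. The arrays had median intensities of 143 to 152, with 46.4% to 48.7% of their probes above background (detection p-value under 0.05). With 3 arrays of each form, their number sets the precision of every value below.

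FOXO factors are transcription factors held out of the nucleus when insulin or growth factors activate PI3-kinase and the kinases AKT and SGK, which phosphorylate them. When that signal drops they enter the nucleus and switch on genes of cell cycle arrest, stress resistance and protein breakdown. Fibroblasts deprived of serum stop dividing, and several growth arrest-specific (Gas) genes were first found by their rise in such mouse cells. FOXO activity is set mostly by phosphorylation and location, which an array does not read.

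The cells carried fibroblast transcripts. Of 10 fibroblast markers on the array, 8 were above background on all 6 arrays, Col1a1, Pdgfra and Vim among them, while Thy1 and Postn were above background on none. The summed intensity of that list was 23936 to 31462 with the truncated form and 28665 to 35814 with the full-length form. No marker of skeletal muscle, where Fbxo32 is best known, was above background on all 6 arrays, and 5 of 9, Myod1 and Ckm among them, were on none. Des was above background on 0 truncated and 3 full-length arrays, Acta1 on 2 and 2, Mb on 1 and 2, and Myog on 1 and 0. The muscle list summed to 1241 to 1268 with the truncated form and 1242 to 1325 with the full-length form, ranges that overlapped. No marker of Schwann cells, where Pmp22 is best known, was above background on all 6 arrays. The Schwann list summed to 712 to 774 with the truncated form and 776 to 821 with the full-length form, and its part in the Pmp22 difference was not tested.

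Foxo1 was the only FOXO factor above background. Its probe read 317, 344 and 403 intensity units on the truncated arrays and 391, 401 and 317 on the full-length arrays, so the forms overlapped. After background correction and normalisation, the log2 level was 7.91 ± 0.08 with the truncated form and 7.90 ± 0.18 with the full-length form (SD, n = 3 each). The log2 difference, truncated minus full-length, was 0.01 ± 0.12 (SE), with a 95% confidence interval from -0.26 to 0.29. Foxo3 read 133 to 141 with the truncated form and 129 to 140 with the full-length form, and was not above background on any array. Foxo4 read 125 to 128 with the truncated form and 120 to 135 with the full-length form, and likewise was not above background on any array. For Foxo3 and Foxo4 no difference between the forms can therefore be given.

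Fbxo32 encodes the F-box protein atrogin-1, which brings substrates to a ubiquitin ligase and drives muscle wasting as a FOXO target. Its brightest probe read 189, 206 and 223 on the truncated arrays, against 288, 295 and 267 on the full-length arrays. Every truncated array lay below every full-length array, and the spread within each form was small beside the gap between them. The log2 level was 6.50 ± 0.06 with the truncated form and 7.29 ± 0.03 with the full-length form (SD, n = 3 each), a difference of -0.79 ± 0.10 (SE), or 1.73-fold lower. Of the other 2 Fbxo32 probes, the first was above background on 1 truncated array and all 3 full-length arrays, and had a log2 difference of -0.39 ± 0.20 (SE) with overlapping forms. The remaining probe was not above background on any array. The value for Fbxo32 thus rests on 1 probe, and all 3 read close to background. With no background correction its log2 difference was -0.40, and in the mean of both probes past the filter it was -0.59.

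Pik3ip1 encodes a transmembrane protein that binds the catalytic subunit of PI3-kinase and lowers its activity, upstream of AKT and FOXO. Its single probe read 281, 302 and 383 on the truncated arrays, against 481, 509 and 496 on the full-length arrays. The forms did not overlap, with truncated replicate 3 the highest of its form. The log2 level was 7.69 ± 0.19 with the truncated form and 8.50 ± 0.10 with the full-length form (SD, n = 3 each). The difference of -0.81 ± 0.13 (SE), or 1.76-fold lower, was close to that of Fbxo32, and their order turned in some of the alternatives. With no background correction it was -0.56, and -0.53 in the series matrix values.

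Ccng2 and Txnip, both known as FOXO targets, were lower with the truncated form by smaller amounts. Ccng2 encodes an unconventional cyclin whose level is high in resting cells. It read 268, 264 and 323 on the truncated arrays and 337, 375 and 327 on the full-length arrays, with a log2 difference of -0.36 ± 0.12 (SE), or -0.22 with no background correction. Txnip encodes an alpha-arrestin that binds thioredoxin and lowers glucose uptake. It read 1309, 1506 and 1898 on the truncated arrays and 2014, 2123 and 1836 on the full-length arrays. In these intensities truncated replicate 3 lay above full-length replicate 3. After normalisation the Txnip arrays of the forms did not overlap, with log2 levels of 10.45, 10.47 and 10.67 with the truncated form and 10.82, 10.90 and 10.76 with the full-length form, a difference of -0.30 ± 0.11 (SE).

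The promoters of these genes show where forkhead letters lie. RefSeq promoters (build GRCm38.p6) were found for 8 of the 10 genes with 11 start sites, and not for Fbxo32 or Foxo4. The 250 bases before each start were searched on both strands for the FOXO motif GTAAACA, for the related run CAAAACA, and for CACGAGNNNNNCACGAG, a paired box known from the human TXNIP promoter as its glucose response element. These motifs do not contain each other. Txnip is shown because it alone held the FOXO motif, Ccng2 because it alone held the related run, and Pik3ip1 because it differed about as much as Fbxo32 and held none of the 3. All are given 5′ to 3′ on the plus strand, with the searched letters in capitals, at chr3:96557707-96557956 for Txnip, chr5:93267323-93267572 for Ccng2 and chr11:3330481-3330730 for Pik3ip1.
Txnip: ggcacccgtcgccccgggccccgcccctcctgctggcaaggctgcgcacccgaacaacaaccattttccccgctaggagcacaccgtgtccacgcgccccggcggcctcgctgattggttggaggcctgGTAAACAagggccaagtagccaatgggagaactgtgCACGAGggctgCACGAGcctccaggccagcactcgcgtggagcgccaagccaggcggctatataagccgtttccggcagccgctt
Ccng2: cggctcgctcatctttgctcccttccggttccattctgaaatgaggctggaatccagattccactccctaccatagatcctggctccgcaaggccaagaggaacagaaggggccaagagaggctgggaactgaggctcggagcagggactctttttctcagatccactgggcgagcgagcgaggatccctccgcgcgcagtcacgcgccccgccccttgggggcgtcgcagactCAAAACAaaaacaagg
Pik3ip1: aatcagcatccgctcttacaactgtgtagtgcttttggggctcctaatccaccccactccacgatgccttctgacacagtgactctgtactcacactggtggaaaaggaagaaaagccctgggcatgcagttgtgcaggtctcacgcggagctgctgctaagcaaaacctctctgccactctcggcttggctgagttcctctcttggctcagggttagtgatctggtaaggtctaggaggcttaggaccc
The FOXO motif of Txnip began 121 bases before the start and the paired box 85 bases before it, and the run in Ccng2 began 16 bases before the start. Of 32841 promoters, 3.17% held GTAAACA and 5.56% held CAAAACA, against 1 of the 11 promoters of the 10 genes for each. The paired box stood in 1 promoter of the 32841, that of Txnip, from whose human counterpart its letters were taken. A match describes letters in this window and is no evidence of binding in these cells.

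Ypel3, Gas6 and Pmp22 are linked to growth arrest by routes other than FOXO. Ypel3 encodes a small Yippee-like protein, a p53 target in human cells that slows growth. Its brighter probe read 2505, 2893 and 3608 on the truncated arrays, against 3948, 4125 and 3965 on the full-length arrays. The forms did not overlap, and the log2 difference was -0.38 ± 0.11 (SE). Its other probe, close to background at 157 to 169 with the truncated form and 170 to 181 with the full-length form, had a log2 difference of -0.17 ± 0.11 (SE), and its forms overlapped after normalisation.

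Gas6 encodes a secreted ligand of the receptor kinases TYRO3, AXL and MERTK. It read 179, 198 and 220 on the truncated arrays and 224, 228 and 240 on the full-length arrays, without overlap, and had a log2 difference of -0.37 ± 0.14 (SE). That difference was -0.17 with no background correction and -0.24 without full-length replicate 3. Pmp22, also called Gas3, encodes a membrane protein of myelin that many cells make. Its brighter probe read 753, 939 and 1079 on the truncated arrays and 1308, 1296 and 998 on the full-length arrays. The intensities overlapped, while the normalised values of 9.54, 9.71 and 9.77 with the truncated form lay just below those of 10.15, 10.12 and 9.83 with the full-length form, for a log2 difference of -0.36 ± 0.13 (SE). The other Pmp22 probe read 428 to 571 with the truncated form and 566 to 596 with the full-length form. Its log2 difference was -0.12 ± 0.12 (SE), with forms that overlapped, so the probes of Pmp22 differed in size.

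**Figure D1:**
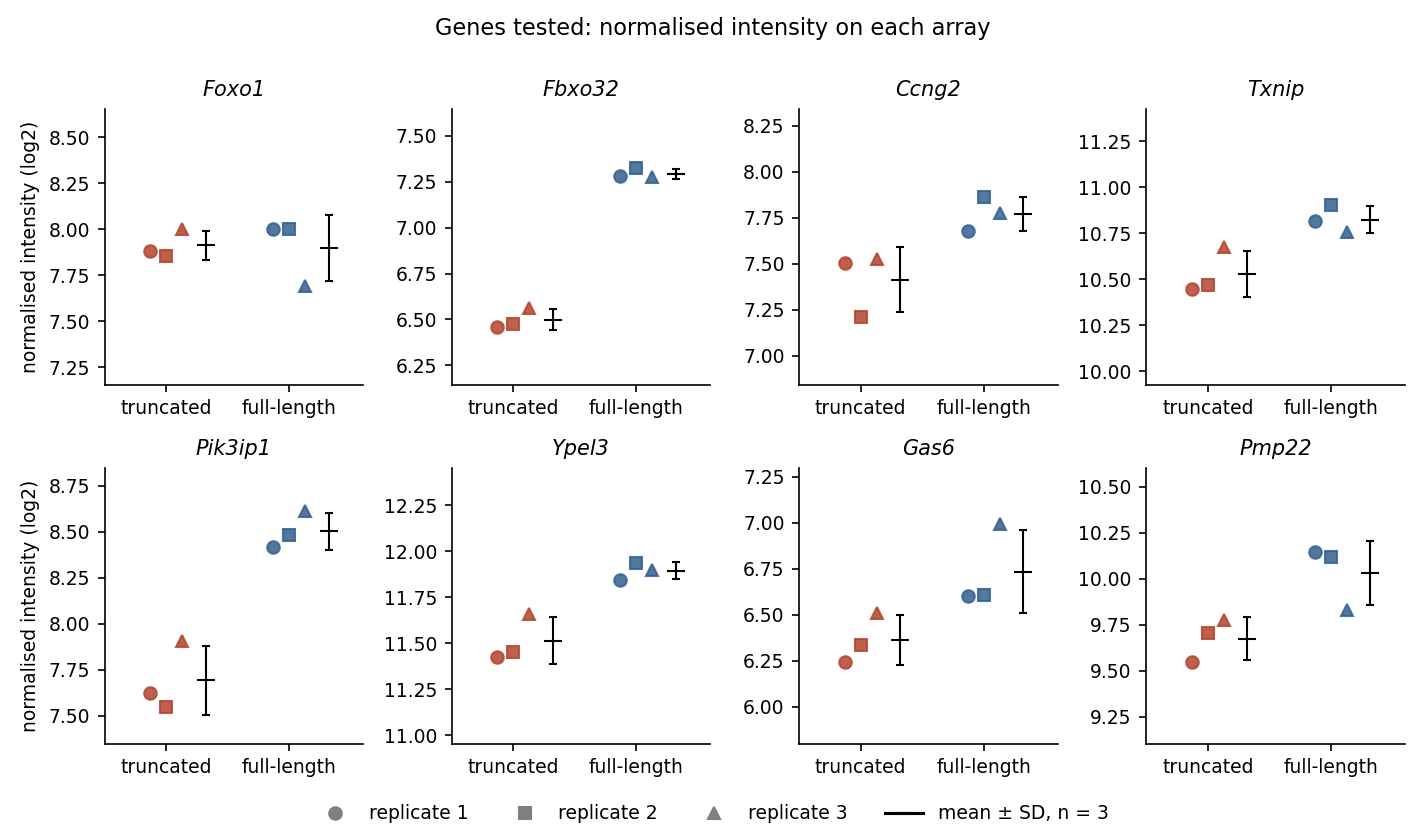
Normalised intensity (log2) of the 8 genes above background on at least 3 arrays, with 1 symbol per array, truncated arrays left of full-length arrays, and the mean ± SD of 3 arrays beside them. Each panel spans 1.5 log2 units around its own mean, and Foxo1 is the gene whose forms overlap.

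Across the 8 genes that passed the filter, 7 had all truncated arrays below all full-length arrays after normalisation, where 12.8% of all 8990 genes tested did. The median log2 difference of the 8 was -0.37, against 0.01 over all genes. In the limma fit of all genes, Fbxo32 and Pik3ip1 had an adjusted p under 0.05 (Benjamini-Hochberg), which 1.6% of genes had in either direction, 1.09% as lower and 0.512% as higher. Since the choice of the genes used this contrast, nothing is read from these counts. Neither gene had an adjusted p under 0.05 without full-length replicate 1, 2 or 3 in turn, or without truncated replicate 1 or 2. In those refits 0 to 13 of all genes had one. Without truncated replicate 3 both had, as did 323 of all genes (3.67%). The median of the 8 was -0.32 to -0.43 over those 6 refits.

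**Figure D2:**
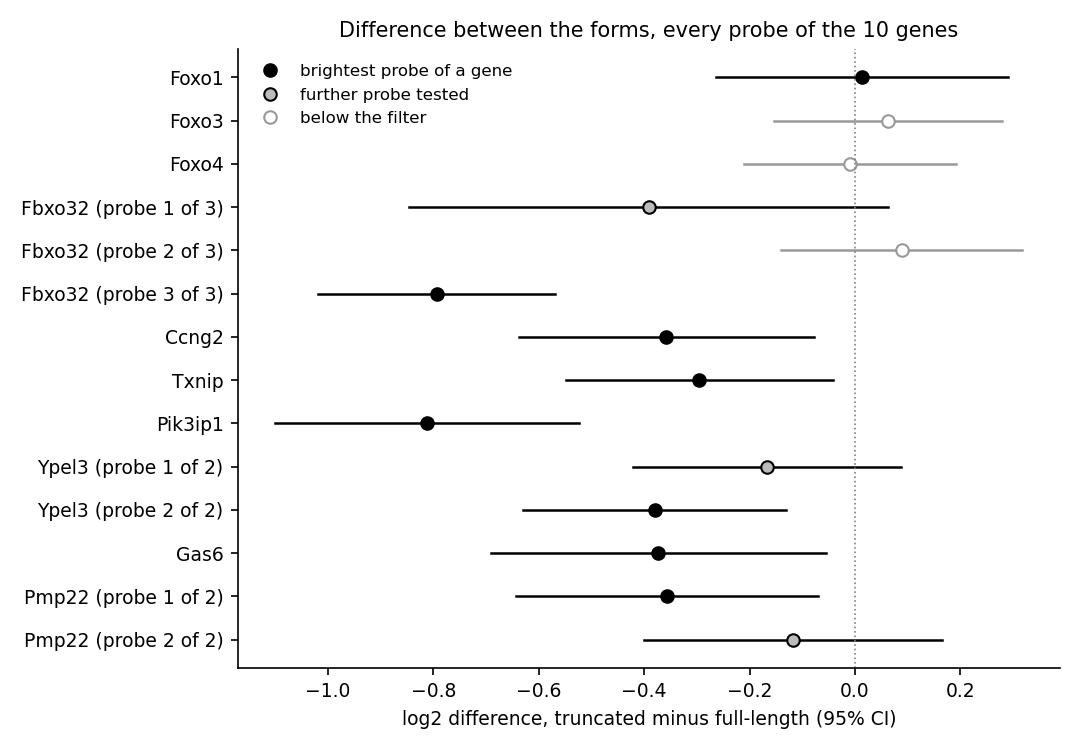
Log2 difference, truncated minus full-length, with its 95% confidence interval (CI) for each of the 14 probes of the 10 genes. Black points are the brightest probe of a gene, grey points further probes past the filter and open points probes below it. The brightest probes of 7 genes lie below 0 with unadjusted intervals that do not reach it, as for 931 of all 8990 genes. The genes were picked with this contrast in view, so the intervals are no test.

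How the genes varied within a form uses no comparison of the forms. For all 8 genes truncated replicate 3 was the highest of the 3 truncated arrays, where 38.0% of all genes had their highest truncated value on that array. Its excess over the mean of truncated replicates 1 and 2 was 0.09 for Fbxo32 and 0.32 for Pik3ip1 on the log2 scale, the smallest and the largest of the 8. The median excess was 0.19 over the 8 genes and 0.02 over all genes. The lowest truncated value fell on replicate 1 for 5 genes and on replicate 2 for 3. Among the full-length arrays replicate 2 was highest for 5 of the 8 genes, where 34.5% of all genes had their highest full-length value.

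Proliferation markers stood the other way between the forms. With each gene centred on its mean over the 6 arrays, the 8 genes averaged -0.27, -0.28 and -0.08 in truncated replicates 1, 2 and 3, and 0.19, 0.24 and 0.20 in full-length replicates 1, 2 and 3. The mean of 12 proliferation markers, centred in the same way, was 0.35, 0.19 and 0.05 on the truncated arrays and -0.17, -0.09 and -0.33 on the full-length arrays. In both lists truncated replicate 3 was thus the truncated array closest to the other form, while full-length replicate 2 was the highest full-length array in both. None of the 12 markers passed the limma test after adjustment. An unadjusted p under 0.05 was found for 8 of them, all higher with the truncated form, where 20.1% of all genes had such a p in either direction and 9.76% as higher. The list's median log2 difference was 0.41. The 0 of 12 depended on the analysis, as did the share of all genes that passed, which was 1.6% in the main fit. With no background correction 7 markers passed, and 7.85% of all genes. A variance trend and robust eBayes gave 7 markers and 8.04% of all genes. Without truncated replicate 3 these were 3 markers and 3.67% of all genes. The 4 with the smallest p were Ccne2, a cyclin of the G1/S transition (0.75 ± 0.16, SE), Rrm1, a subunit of ribonucleotide reductase (0.58 ± 0.14), Mcm5, of the replicative helicase (0.54 ± 0.13), and Tyms, thymidylate synthase (0.45 ± 0.13), with adjusted p from 0.0582 to 0.11. Ccne2 stood at 0.29 with no background correction, and Tyms at 0.20 in the mean of its probes. In bulk RNA, fewer resting cells and less of these transcripts per cell cannot be told apart, and the part of the cycling state in the differences above was not tested.

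**Figure D3:**
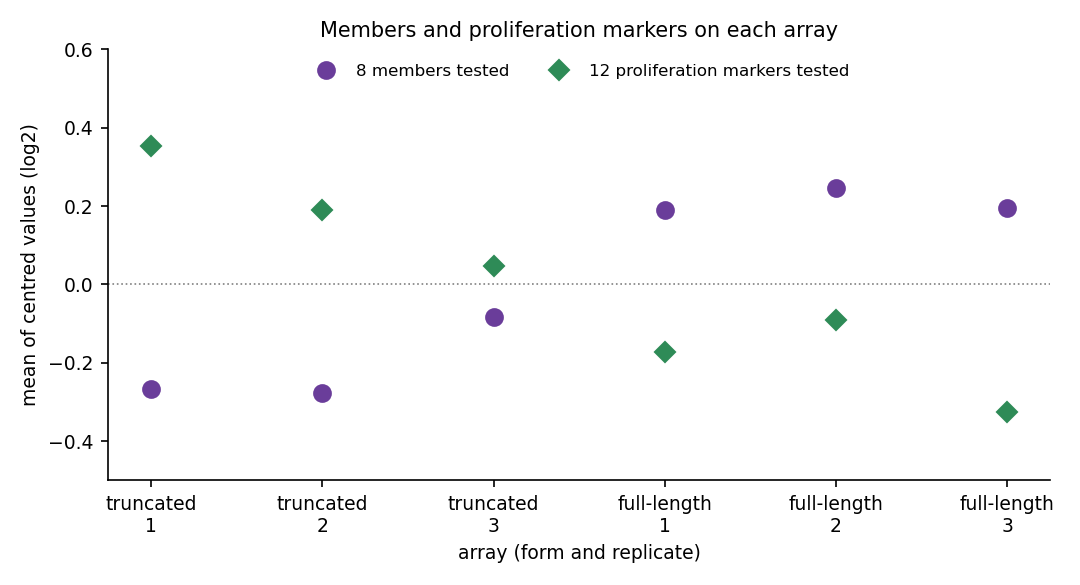
Mean of the centred log2 values on each of the 6 arrays for the 8 genes tested (circles) and 12 proliferation markers (diamonds). Circles lie below 0 on the 3 truncated arrays and above 0 on the 3 full-length arrays, diamonds the reverse, with truncated replicate 3 closest to 0 for both among the truncated arrays.

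The rest of the FOXO pathway was followed in 5 lists with 126 further genes on the array, of which 101 passed the filter. Of those, 1 fell and none rose at an adjusted p under 0.05, or 0.99%, against 1.6% of all genes. Unadjusted p was under 0.05 for 23 of the 101 genes (22.8%), 12 higher and 11 lower, against 20.1% of all genes. Both shares were near those of all genes, and the median log2 difference of the 101 was -0.01.

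The PI3-kinase and AKT genes upstream of the FOXO factors had no member past the adjusted threshold among 19 tested, with a median log2 difference of -0.03. An unadjusted p under 0.05 was found for 4 (21.1%, near the 20.1% of all genes), and all of those were higher with the truncated form. Of the 19 genes, 12 lay below 0 (63.2%, against 48.3% of all genes), so the genes named next do not stand for the list. Sgk1, a kinase that phosphorylates FOXO proteins as AKT does, had a log2 level of 12.10 ± 0.17 with the truncated form and 11.46 ± 0.30 with the full-length form (SD, n = 3 each), without overlap. Its difference of 0.64 ± 0.17 (SE) did not pass (adjusted p = 0.09, limma). The PI3-kinase catalytic subunit gene Pik3cb stood at 0.38 ± 0.16 and the insulin receptor substrate Irs2, itself a FOXO target, at 0.27 ± 0.12, with adjusted p of 0.218 and 0.245. Pik3cb stood at 0.24 without truncated replicate 1.

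The 21 tested partners and modifiers of FOXO proteins had a median log2 difference of 0.09, and none passed after adjustment. An unadjusted p under 0.05 was found for 3 (14.3%, against 20.1% of all genes), all higher with the truncated form. Below 0 lay 8 of the 21 (38.1%, against 48.3% of all genes). The genes named next were picked by their p and do not stand for the list. Skp2, which marks FOXO1 for breakdown in human cells, stood at 0.38 ± 0.14 (SE), the deubiquitinase Usp7 at 0.32 ± 0.13, and the 14-3-3 genes Ywhag and Ywhah, whose proteins hold phosphorylated FOXO in the cytoplasm, at 0.36 ± 0.12 and 0.23 ± 0.10. Their adjusted p ran from 0.148 to 0.256. Further 14-3-3 genes that were tested are named for that role and not for their p. Ywhab stood at -0.04, Ywhaq at -0.05, Ywhaz at 0.15 and Ywhae, above background on 1 full-length array, at 0.40 ± 0.24 (SE).

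Of 23 tested FOXO targets outside the 10 genes, 1 fell and 22 did not pass, with a median log2 difference of -0.09 and 15 values below 0 (65.2%), as 48.3% of all genes had. For 7 of the 23 (30.4%), 5 lower and 2 higher, the unadjusted p was under 0.05, against 20.1% of all genes. The gene that fell was Selenop, which encodes the secreted selenium carrier selenoprotein P. Its log2 level was 9.93, 10.16 and 10.49 on the truncated arrays, against 10.94, 11.05 and 10.89 on the full-length arrays. The forms did not overlap, and truncated replicate 3 was again the highest of its form. The difference was -0.77 ± 0.15 (SE, adjusted p = 0.0482, limma), lower on all 3 truncated arrays. It lay just inside the threshold, and it did not pass in 9 of 17 alternative analyses, among them 5 of the 6 that left out an array, with adjusted p from 3.9e-04 to 0.171 and differences from -0.92 to -0.63.

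Of 17 tested quiescence-linked genes outside the 10, none passed after adjustment, with a median of -0.12. An unadjusted p under 0.05 was found for 4 (23.5%, near the 20.1% of all genes), 2 higher and 2 lower. The transcription factors Klf4 (0.45 ± 0.13, SE) and Hes1 (0.39 ± 0.14) stood above 0. The mRNA decay factor Zfp36l1 (-0.38 ± 0.13) and Mxd4, a MAX partner that opposes MYC (-0.30 ± 0.12), stood below it, with adjusted p of 0.109 to 0.216 for the 4. With no background correction Klf4 stood at 0.27 and Hes1 at 0.18, and in the series matrix values Mxd4 stood at -0.18.

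Relatives and partners of the 10 genes had no member past the adjusted threshold among 23 tested, with a median of -0.05. An unadjusted p under 0.05 was found for 5 (21.7%, near the 20.1% of all genes), 1 higher and 4 lower. Of the 23, 12 lay below 0 and 11 above (52.2% below, against 48.3% of all genes). The genes named next thus do not stand for the list. Pros1 encodes protein S, a vitamin K-dependent ligand of some of the receptors of Gas6. It had a log2 level of 10.15 ± 0.24 with the truncated form and 10.67 ± 0.19 with the full-length form (SD, n = 3 each). The difference was -0.53 ± 0.15 (SE, adjusted p = 0.114, limma). Mertk, a receptor for both ligands, had 6.59 ± 0.06 with the truncated form and 7.07 ± 0.24 with the full-length form, a difference of -0.48 ± 0.14 (adjusted p = 0.11), which was -0.24 with no background correction. Axl and Tyro3, the related receptors, stood at 0.17 and -0.05, and are named for that role and not for their p. Ypel1, a relative of Ypel3, stood at -0.43 ± 0.15, and Fbxo25, the nearest F-box relative of Fbxo32, at -0.37 ± 0.11, neither of which passed (adjusted p = 0.151 and 0.128). Ypel1 stood at -0.18 with no background correction and -0.28 without full-length replicate 1. Arrdc4, the alpha-arrestin most tied to Txnip by their shared response to glucose, stood at -0.07 and is likewise named for its role.

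**Figure D4:**
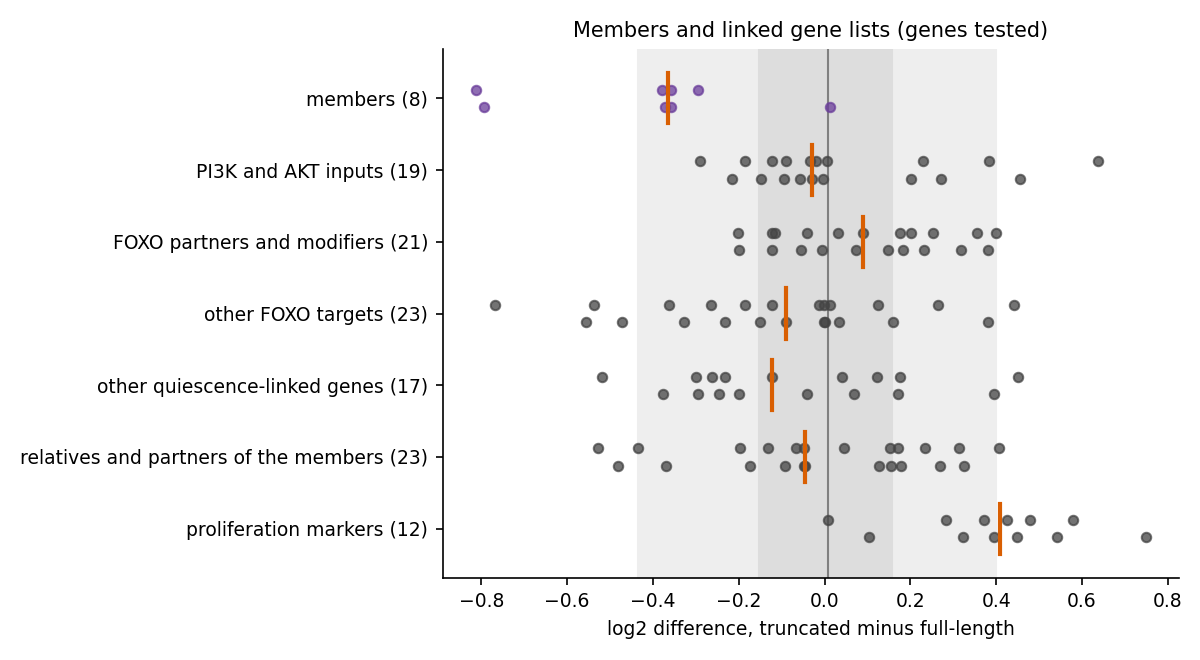
Log2 differences, truncated minus full-length, of the 8 genes tested, 5 lists of linked genes and the proliferation markers, with 1 point per gene, orange bars at the list medians and the number of genes in brackets. The dark band holds the middle of all 8990 genes (percentiles 25 to 75, -0.15 to 0.16), the light band percentiles 5 to 95 (-0.44 to 0.40) and the grey line their median.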

How the data were processed

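RNA from 3 truncated and 3 full-length samples was labelled with biotin, per the labels, and each array was read in 1 colour. The deposited table holds 1 signal intensity and 1 detection p-value for each probe and array, and calls itself non-normalized, per the file headers. The lowest deposited intensity is 103. The submitters' processing notes name GenomeStudio. The deposited series matrix holds linear intensities (median 143 on each array) that look quantile normalized, which no label states, and served as an alternative. Scan date, slide and chip were not known. All columns were used (0 left out), and no 2 arrays were identical.

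In limma 3.58.1 (R 4.3.3) the normexp background correction took its controls from the detection p-values (neqc, offset 16). Values were then taken to log2 and quantile normalized. With the offset added, small signals give folds that are too small. A probe was kept if its detection p was under 0.05 on 3 or more of the 6 arrays (12227 probes), and the probe with the highest mean stood for each of 8990 genes. Other probes come from a fit of every probe. Names came from RefSeq accessions for 24202 probes, symbols for 536 and synonyms for 297. Forms were compared by lmFit and eBayes, adjusted by Benjamini-Hochberg over all genes, at a threshold of 0.05. The fit was tested on simulated data. The 10 genes and all lists were chosen with earlier results of these data known. Named list genes are those past the threshold or else the 4 with the smallest p, exceptions are marked, and some genes that this rule names are not reported here. Alternatives changed the background correction, normalization, filter, probes, variance model, weights, block and arrays. Figures were drawn with matplotlib 3.10.9.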

Additional observations from a re-analysis of the deposited data

How the results depend on the processing

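The direction of all 7 lower genes and the sign of the median difference held in all 17 alternatives, with medians from -0.43 to -0.30, while Foxo1 lay between -0.09 and 0.07. For the 7 genes this was largely fixed in advance. All their truncated arrays lay below all full-length arrays, so leaving out or weighting arrays could hardly turn a sign. The variance model, the block and the filter on all 6 arrays left the median at -0.37. The held direction is thus no test of these genes. Counts moved far more, in the order genes called over all, called among the 10, and called among the 101 linked genes (144, 2 and 1 as reported). They were 156, 2 and 1 with cyclic loess, 706, 4 and 11 with no background correction, 633, 3 and 8 with normexp and an offset of 50, 731, 5 and 11 with the series matrix values, 723, 3 and 10 with a variance trend and robust eBayes, 355, 2 and 6 with array weights, 252, 2 and 2 with probes above background on all 6 arrays, 81, 2 and 0 with median scaling (which shifted the median of all genes to -0.05), 33, 1 and 0 with no filter, and 136, 1 and 0 with the mean of a gene's probes. Of the calls, 68.1% were lower as reported, 52.5% with no background correction, 54.8% with normexp, 52.1% with the series matrix values, 52.8% with a variance trend and 85.2% with median scaling. The cause of these changes was not tested. Leaving out 1 array gave 0 to 323, 0 to 2 and 0 to 4. Bcl2l11 and Sesn1, FOXO targets of cell death and stress, had log2 differences of -0.56 and -0.54 in the main fit. Neither passed there (adjusted p = 0.0833 and 0.0681, limma). Both were called with no background correction, normexp, the series matrix values, a variance trend, array weights, and without truncated replicate 3. Sesn1 was also called with probes above background on all 6 arrays. Replicate numbers gave no sign of pairing: same-numbered deviations correlated at 0.03, -0.16 and -0.14, and different-numbered ones at -0.04 to 0.18. With 3 arrays of each form, these values cannot show whether the arrays were paired. With the replicate block the counts were 33, 0 and 0 in limma, where 6 of the 8 genes and 21 linked genes had an unadjusted p under 0.05. Where a count among the linked genes was 0, 16 to 26 of them had an unadjusted p under 0.05. Of the 12 proliferation markers 0 to 7 were called over the 17 alternatives, with 6 to 10 at an unadjusted p under 0.05. Nearness to background leaves Foxo3 and Foxo4 unmeasured, and with no background correction Fbxo32, Gas6, Ccng2, Ccne2, Hes1, Klf4, Mertk and Ypel1 had differences over 1.5 times smaller.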
